A study of Ooceraea biroi with 96 samples.

Results

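Single-exon genes of the clonal raider ant, Ooceraea biroi, are genes that the deposited count table lists with 1 exon entry. The set described here holds the 183 of them, other than tRNA genes, that averaged 1 or more counts per 1000000 counts of the library (CPM) over 96 brain libraries, out of 13755 features in the table. Each library was made from the whole brain of 1 individual of clonal lineage B or M (its genotype), moved as a newly hatched larva into a social environment of lineage B or of lineage M. The question of the design is whether genotype, social environment or age changes gene expression in the brain. At 8 days of age there were 14 brains of genotype M in environment M (MinM), 12 of genotype M in environment B (MinB), 10 of genotype B in environment M (BinM) and 10 of genotype B in environment B (BinB). At 1 day there were 20 MinM, 14 MinB, 9 BinM and 7 BinB brains. No agent and no engineered allele is labelled in any group, and each genotype is a clonal lineage, so that genetic variation within a genotype is not sampled. The labels do not say how many colonies the brains came from, and p-values therefore measure the spread between these individuals.

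A transcript of a single-exon gene leaves the nucleus without splicing, and its reads cross no splice junction. In animals such genes are known to include copies made by reverse transcription of spliced transcripts, and families such as the replication-dependent histones and many G protein-coupled receptors. Such a gene can lie within an intron of another gene, where its count can hold reads of the surrounding transcript. The table and the gene annotation used here pair these genes with no product names, so each gene is given by its identifier, no role is stated for it, and brain cell markers were not checked.

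The libraries held 10700000 to 26960000 counts to 4 digits, with a median of 16450000. A library is said to stand apart where its median Spearman correlation with its own group lay more than 3 median absolute deviations under the median of its age. The 8 such libraries were BinB day 1 replicate 9, MinB day 1 replicate 12, MinM day 1 replicate 16, MinM day 8 replicates 6, 9 and 12, MinB day 8 replicate 8 and BinM day 8 replicate 2, with correlations of 0.947 to 0.982. The counts of calls in each comparison and the correlations between genes over libraries are given with and without them. The titles of day 8 and day 1 libraries have different forms, and a difference between the ages cannot be told apart from one between these sets of libraries.

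Few single-exon genes were detected at the chosen level. Of 985 single-exon genes other than tRNA genes, 183 (18.6%) reached 1 CPM, against 8807 of 12568 multi-exon genes (70.1%), and 339 single-exon genes had no read in any library. By annotated class, 181 of the 183 were protein-coding and 2 were rRNA genes (LOC113563324 and LOC113562865), which belong to a class with 109 single-exon copies, so that reads may be shared between copies and their values are uncertain. Just above the limit were LOC113563675, with a mean of 1.08 CPM, and LOC113562948, with 1.05 CPM. Just below it were LOC105286392, with 0.989 CPM, and LOC113561421, with 0.922 CPM. These values are scaled by the trimmed mean of M values (TMM), as are the CPM values of single genes by library given below, while the limit itself and means over all libraries use library totals.

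Each single-exon gene was set beside the 3 multi-exon genes of nearest mean CPM, 549 in all, as a description with no test. The median level was 14.61 CPM in both sets, and the median exon length was 1946 bases in single-exon genes and 2555 bases in matched genes. Single-exon genes lay more often in the span of a gene on the same strand (62 genes, 33.9%, against 46 matched genes, 8.38%). They lay less often over a gene of the opposite strand (34 genes, 18.6%, against 210, 38.3%). Entirely inside another gene were 48 single-exon genes (26.2%) and 39 matched genes (7.1%), and 95 single-exon genes (51.9%) overlapped no other gene. The library kit is labelled as stranded, but no source used here states whether the counting used strand, so reads of overlapping genes cannot be told apart with certainty. Chromosome 13 held the highest share, with 14 single-exon genes among its genes of 1 CPM or more (4.27%), and chromosome 14 the lowest, with 2 (0.719%).

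A few genes supplied much of the set's reads. Members took 0.947% to 1.301% of the counts of a library, and the 8 most abundant held 45.1% of all member counts and the 20 most abundant 67.3%. LOC105278140 (chromosome 2, 16929798 to 16936497, minus strand) and LOC105276884 (chromosome 3, 10316823 to 10326843, plus strand) alone held 21.3%. Both averaged about 1230 CPM, at 1232 CPM for LOC105278140 and 1231 CPM for LOC105276884. Per kilobase of exon the order differed: LOC105277318 (chromosome 9, 13727248 to 13728900) was at 533.4 CPM per kilobase, LOC113562327 (chromosome 7, 12033033 to 12034791) at 232.3, LOC105278140 at 183.9 and LOC105276884 at 122.9. The other 4 of the 8, LOC113562947, LOC105274910, LOC113562179 and LOC105277811, lay between 36.14 and 67.91 CPM per kilobase. LOC105276884 and LOC113562179 lie inside a gene of the same strand, and LOC113562947 overlaps exons of genes on both strands.

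The largest departures of the whole set came from 3 libraries. In MinB day 8 replicate 8, the median single-exon gene lay 0.56 (log2 CPM) below its median in libraries of the same age, a level of 67.8% of that in a typical library. In BinB day 1 replicate 9 the median was -0.50 (70.7%), and in MinM day 8 replicate 6 it was -0.29 (81.9%). The matched multi-exon genes of the same libraries had medians of -0.03, -0.04 and -0.05. Genes of 2 exons had -0.10, -0.10 and -0.01, and genes of 3 to 5 exons 0.05, 0.04 and 0.01. The medians were -0.03, -0.04 and -0.04 in genes of 6 to 10 exons, and -0.06, -0.08 and -0.02 in those of over 10. In the other 93 libraries the single-exon median lay between -0.20 and 0.09, and the matched median between -0.04 and 0.04. These 3 are among the 4 libraries with the lowest correlation with their own group (0.947, 0.954 and 0.971), the other being MinB day 1 replicate 12 (0.966), whose single-exon median was 0.00243. Their totals were 14.29, 14.45 and 13.78 in units of 1000000 counts, above the lowest of the series, 10.7.

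**Figure D1:**
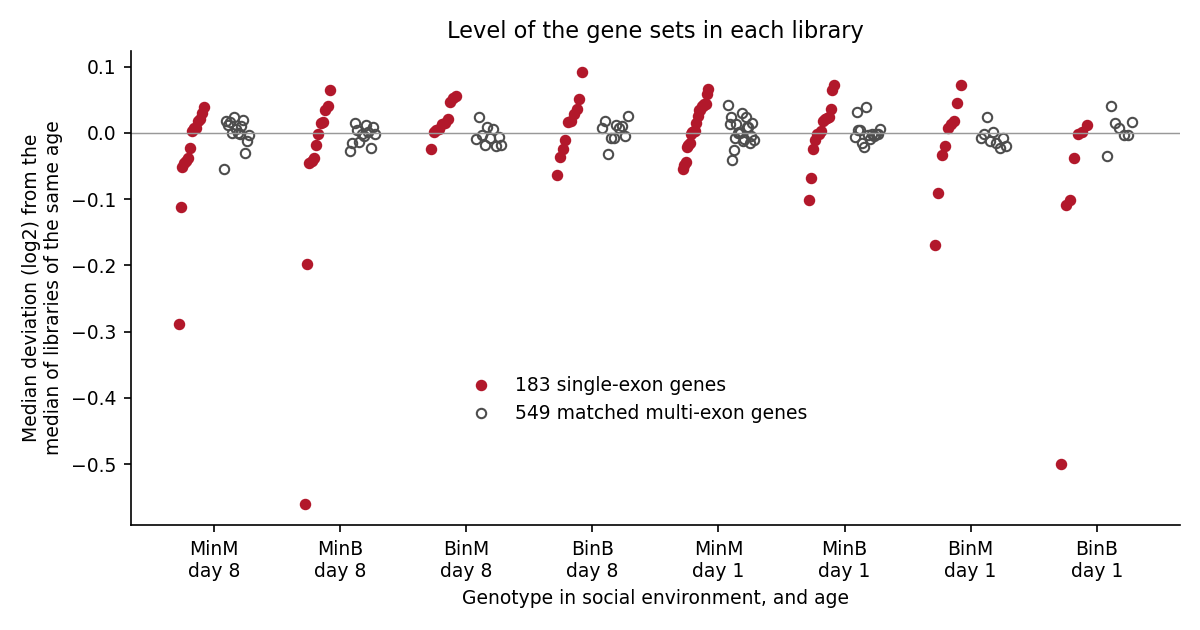
Median deviation in log2 CPM of the 183 single-exon genes (filled) and of the 549 matched multi-exon genes (open) in each library, from the gene's median in libraries of the same age. Each point is 1 library, and groups are named by genotype in social environment, with day 8 on the left. The 3 lowest filled points, at -0.56 (MinB day 8), -0.50 (BinB day 1) and -0.29 (MinM day 8), lie below the others, while all open points lie between -0.05 and 0.04.

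The shift in these libraries took in most members, but in 1 of them it was small in long genes. Below 0 were 129 of the 183 single-exon genes (70.5%) in MinB day 8 replicate 8, 128 (69.9%) in BinB day 1 replicate 9 and 125 (68.3%) in MinM day 8 replicate 6, against 51.7%, 51.7% and 53.2% of matched genes. In MinB day 8 replicate 8 it was alike in genes of low, middle and high CPM, with medians of -0.56, -0.49 and -0.57. The 95 single-exon genes that overlap no other gene had a median of -0.57 there and -0.55 in BinB day 1 replicate 9. Short genes, of 119 to 1318 bases, were at -0.59 and -0.56 in those libraries, and long genes, of 2670 to 19207 bases, at -0.40 and -0.29. In MinM day 8 replicate 6 short genes were at -0.53 and long genes at -0.06, where all its matched genes had a median of -0.05. Between MinB day 8 replicate 8 and BinB day 1 replicate 9 the deviations had a Pearson r of 0.651 across the 183 genes. Across the 549 matched genes it was 0.669. This is a description over genes that share the libraries and their depth. In both libraries 113 single-exon genes (61.7%) lay below 0, against 230 matched genes (41.9%). The set did not move as one: LOC105277318 deviated by -1.73 and -1.14 (log2), and LOC113562327 by 0.98 and 0.94.

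Most members varied little between individuals of a group. The within-group SD of log2 CPM had a median of 0.318 over single-exon genes and 0.276 over matched genes, and 172 of the 183 were detected in all 96 libraries. LOC105276511 (chromosome 6, 13112627 to 13117327) was the steadiest, with an SD of 0.10 and a range of 64.2 to 98.1 CPM at day 8 and 58.1 to 77.1 CPM at day 1. The rRNA gene LOC113563324 was the most variable, with an SD of 1.63. Its values ran up to 43.8 CPM in MinB day 8 replicate 1 and 32.3 CPM in BinM day 8 replicate 2, against medians of 1.15 CPM at day 8 and 0.377 CPM at day 1. LOC105279082 (chromosome 2, 118224 to 119279) and LOC105283694 (chromosome 10, 8961182 to 8962551) followed with SDs of 1.46 and 1.42. LOC105283694 lies inside LOC105283695 on the same strand, and the deviations of this pair from their group means had an r of 0.927 over 96 libraries that share the same counting, and 0.937 over the 88 that do not stand apart.

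Age was the factor that moved most members. A gene is written as called where edgeR's quasi-likelihood test gave a Benjamini-Hochberg adjusted p under 0.05 over all genes tested. Of the 183 single-exon genes, 124 (67.8%) were called, 71 higher and 53 lower at day 8, where 73.1% of the 10056 genes tested were called (37.6% higher and 35.4% lower). Of the 549 matched genes 388 (70.7%) were called, 194 in each direction. The median log2 fold change was 0.05 in single-exon genes, -0.01 in matched genes and 0.01 in all genes, and its median size was 0.22, 0.26 and 0.26. In bulk tissue, fewer cells of a type and less RNA per cell cannot be told apart. With library totals in place of TMM factors, 107 members were called higher and 29 lower at day 8, while the median of all genes moved to 0.14. The split between directions thus depended on the scaling. Without the 8 libraries that stood apart, 128 members were called, 74 higher and 54 lower. For these alternative fits, shares over all genes are not given, so the counts describe members alone.

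**Figure D2:**
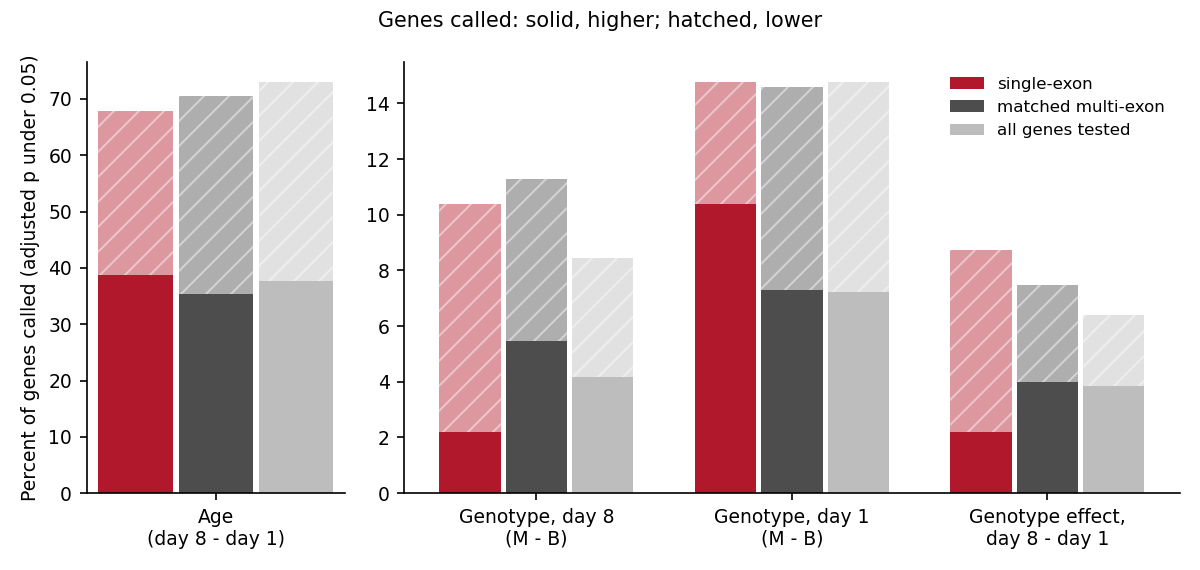
Percent of genes called (adjusted p under 0.05) in each comparison, for the 183 single-exon genes, the matched multi-exon genes and all genes tested. Solid bars count genes higher in the first-named group (day 8, or genotype M) and hatched bars genes lower in it, and the left panel has its own axis. From left to right the shares called were 67.8%, 10.4%, 14.8% and 8.74% for single-exon genes. For all genes tested they were 73.1%, 8.45%, 14.8% and 6.39%. The directions were less even than in matched genes in each comparison.

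Changes of at least 2-fold were few. They were called in 9 single-exon genes (4.92%), 5 higher and 4 lower at day 8, against 49 matched genes (8.93%), 12 higher and 37 lower, and 9.76% of all genes. The share called was 60.7%, 65.6% and 77.0% in the lowest, middle and highest 61 members by CPM, and 64.1%, 66.1% and 81.3% in their matched genes. Age accounted for a median of 10.65% of the variance of log2 CPM in single-exon genes and 14.48% in matched genes. Among members that overlap no other gene, 67 of 95 (70.5%) were called, 34 higher and 33 lower.

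LOC105278140 and LOC105274910, a pair of the most abundant members, were lower at day 8 in every library. LOC105278140 had a median of 682 CPM at day 8, with a range of 488 to 821 CPM, against a median of 1842 CPM at day 1, with a range of 1138 to 3596 CPM. The ages did not overlap, and it follows that they did not within any of the 4 rearing groups. The log2 fold change was -1.42 ± 0.06 (SE), with an edgeR adjusted p of 3.66e-37. LOC105274910 (chromosome 1, 16091343 to 16099527, minus strand, overlapping no gene) had a median of 171 CPM at day 8, with a range of 113 to 212 CPM, against a median of 550 CPM at day 1, with a range of 334 to 932 CPM. Again all 46 day 8 brains lay below all 50 day 1 brains. Its log2 fold change was -1.70 ± 0.06 (SE; edgeR adjusted p = 3.59e-44). These 2 of 183 members (1.09%) had no overlap between the ages, where 1.45% of all genes tested had none.

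The largest fall was that of LOC105277384 (chromosome 9, 13743810 to 13746489, plus strand). It had a median of 1.55 CPM at day 8 (0.281 to 4.44), against 6.17 CPM at day 1 (2.30 to 16.98). The ranges overlapped between 2.30 and 4.44 CPM, and in 3 of the 4 rearing groups they did not overlap. The log2 fold change was -2.01 ± 0.13 (SE; edgeR adjusted p = 9.31e-27). LOC105285826 (chromosome 4, 17603340 to 17607362), which overlaps no gene, had 43.9 CPM at day 8 (19.5 to 96.4) and 97.9 CPM at day 1 (33.3 to 274.9) by the median, a log2 fold change of -0.997 ± 0.119 (SE; edgeR adjusted p = 2.59e-12). LOC105278722 was near the limit of detection, with a median of 0.421 CPM at day 8 and 0.954 CPM at day 1, and its ranges overlapped widely (log2 fold change -1.60, edgeR adjusted p = 5.99e-06). The other 3 of the 8 largest falls, LOC113561820, LOC113562304 and the rRNA gene LOC113562865, had log2 fold changes of -0.97, -0.95 and -0.90, each with overlapping ranges. LOC113562304 lies inside LOC105284367 on the same strand, which was also lower at day 8 (log2 fold change -0.24).

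The largest rise was that of LOC105277917 (chromosome 1, 4804131 to 4807556, plus strand). Its median was 5.33 CPM at day 8 (0.982 to 64.8), against 0.394 CPM at day 1 (0 to 2.67, with 2 libraries at 0). All day 8 groups averaged more than their day 1 counterparts, at 3.78 against 0.471 CPM in MinM, 5.13 against 0.528 in MinB, 6.97 against 0.773 in BinM and 18.9 against 1.10 in BinB. The log2 fold change was 3.38 ± 0.26 (SE), a 10.4-fold difference with an edgeR adjusted p of 4.91e-21. Its neighbour LOC105277916 (chromosome 1, 4808412 to 4810917) had a median of 42.7 CPM at day 8 (5.18 to 128.7), against 18.2 CPM at day 1 (2.44 to 63.0), with overlapping ranges and a log2 fold change of 1.31 ± 0.21 (SE; edgeR adjusted p = 2.34e-08). Both lie inside LOC105277924, on the same strand, and LOC105287121, on the opposite one, without overlapping their exons. Neither host was called for age, with log2 fold changes of -0.15 (edgeR adjusted p = 0.537) and 0.11 (edgeR adjusted p = 0.154).

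**Figure D3:**
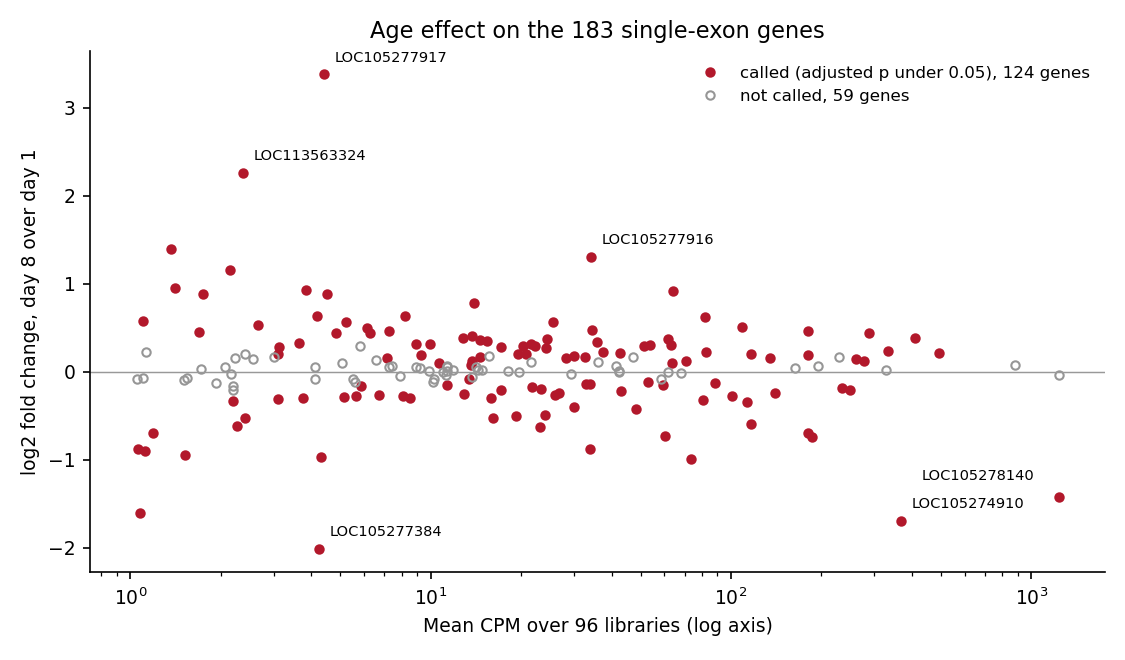
log2 fold change of day 8 over day 1 of each single-exon gene against its mean CPM over 96 libraries (log axis). Filled points are the 124 genes called and open points the 59 that were not. Most lie within 1 of 0 at all levels, LOC105277917 stands at 3.38, and LOC105274910 and LOC105278140 are the abundant genes at -1.70 and -1.42.

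The other rises were of genes at lower levels, except LOC105287542 (chromosome 5, 6982552 to 6983116). It had a median of 80.5 CPM at day 8 (12.7 to 156.4), against 45.3 CPM at day 1 (10.6 to 85.3), and a log2 fold change of 0.92 ± 0.10 (SE; edgeR adjusted p = 4.22e-14). Its lowest values in each age, 12.7 and 10.6 CPM, were those of MinB day 8 replicate 8 and BinB day 1 replicate 9. LOC105278285 (chromosome 10, 3743666 to 3744898) had a median of 2.81 CPM at day 8 (1.19 to 5.77) and 1.31 CPM at day 1 (0.413 to 2.66). Its log2 fold change was 1.15 ± 0.11 (SE; edgeR adjusted p = 3.91e-16), while its same-strand host LOC105278286 had 0.02 (edgeR adjusted p = 0.794). LOC105284725, LOC113561991 and LOC105283643 had log2 fold changes of 1.40, 0.95 and 0.93, and medians of 1.73, 1.80 and 4.92 CPM at day 8, against 0.711, 0.979 and 2.60 CPM at day 1. The rRNA gene LOC113563324 was called with a log2 fold change of 2.26 ± 0.41 (SE; edgeR adjusted p = 7.90e-07), but its ranges overlapped, at 0 to 43.8 CPM at day 8 and 0 to 3.39 CPM at day 1.

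**Figure D4:**
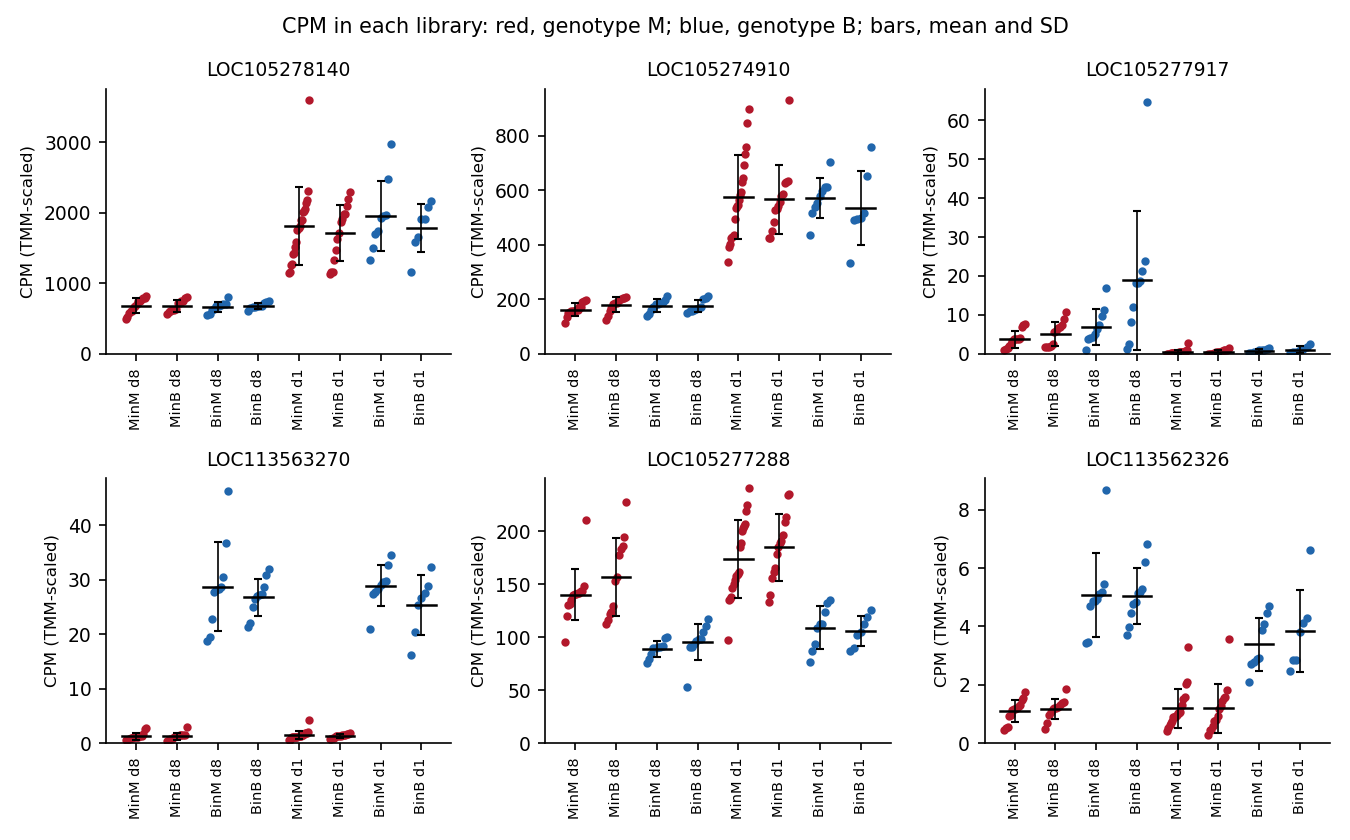
CPM (TMM-scaled) of 6 single-exon genes in each of the 96 libraries, by group, with genotype M in red and genotype B in blue. Black bars are the group mean and SD. LOC105278140 and LOC105274910 are lower in all day 8 libraries, LOC105277917 is higher at day 8, and LOC113563270 is lower in all genotype M libraries of an age than in any of genotype B. LOC113562326 does not overlap between genotypes at day 8 and overlaps at day 1, and LOC105277288 has higher genotype M means at both ages with overlapping values.

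Genotype was tested within each age. At day 8, 19 of the 183 single-exon genes (10.4%) were called, 4 higher and 15 lower in genotype M, where 8.45% of all 9472 genes tested were called, 4.16% higher and 4.29% lower. Matched genes had 62 calls (11.3%), 30 higher and 32 lower. At day 1, 27 single-exon genes (14.8%) were called, 19 higher and 8 lower in genotype M, where 14.8% of 9834 genes were, 7.24% higher and 7.52% lower. Matched genes had 80 calls (14.6%), 40 in each direction. The counts were near the background, and the directions of the single-exon calls were mostly lower at day 8 and mostly higher at day 1. Over all 183 members the median log2 fold change of M over B was -0.03 at day 8 and 0.06 at day 1, against 0.0115 and 0.00293 for all genes. No test of direction over the set was made.

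Within each age, those of the 3 libraries of lowest single-exon levels fall in 1 genotype, the one in which calls were mostly lower. MinB day 8 replicate 8 and MinM day 8 replicate 6 are genotype M at day 8, and BinB day 1 replicate 9 is genotype B at day 1. Without the 8 libraries that stood apart, 16 members were called at day 8, 2 higher and 14 lower, and 24 at day 1, 17 higher and 7 lower. The medians were then -0.02 at day 8 and 0.05 at day 1. Shares over all genes are not given for these fits. These counts therefore do not show whether the directions were particular to members. The libraries left out were chosen by their correlation with their group, and others of low single-exon level stayed in. Of these, MinB day 8 replicate 9 had a median of -0.20 and MinM day 8 replicate 7 one of -0.11, both genotype M at day 8. BinM day 1 replicate 4 (-0.17), BinB day 1 replicates 2 (-0.11) and 4 (-0.10) and BinM day 1 replicate 8 (-0.09) are genotype B at day 1, while MinB day 1 replicate 11 (-0.10) is genotype M. The part of low libraries in the directions of the calls was not tested.

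The same direction was called at both ages in 6 members (3.28%), where 3.77% of all genes (1.75% higher and 2.02% lower in genotype M) and 22 of 546 matched genes (4.03%) were. Of the 6, 2 were higher in genotype M (LOC105277288 and LOC105285259) and 4 were lower (LOC113563270, LOC113562326, LOC105285947 and LOC105277286). LOC113563270 (chromosome 13, 5481763 to 5484393, minus strand) had the largest difference. At day 8 its median was 1.12 CPM in genotype M (0.308 to 3.04), against 27.5 CPM in genotype B (18.7 to 46.3). At day 1 it was 1.30 CPM in genotype M (0.6253 to 4.15), against 28.01 CPM in genotype B (16.2 to 34.4). The genotypes did not overlap at either age. The log2 fold change was -4.44 ± 0.16 (SE) at day 8, a 21.7-fold difference with an edgeR adjusted p of 3.78e-27, and -4.30 ± 0.13 at day 1, a 19.7-fold difference with an edgeR adjusted p of 8.30e-32. It was not called for age, with a log2 fold change of -0.04 and a 95% interval of -0.24 to 0.17. It lies inside LOC105281902 on the same strand and overlaps an exon of it, a gene with log2 fold changes for genotype of 0.07 at day 8 and -0.15 at day 1.

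LOC105277288 (chromosome 13, 7937561 to 7940191, minus strand) went the other way. At day 8 its median was 141 CPM in genotype M (95.1 to 227.6), against 91.6 CPM in genotype B (53.3 to 117.0). At day 1 it was 182 CPM in genotype M (97.4 to 240.6), against 111 CPM in genotype B (76.5 to 135.4). The genotypes overlapped in part at both ages. Its log2 fold change was 0.69 ± 0.08 (SE; edgeR adjusted p = 1.89e-09) at day 8 and 0.73 ± 0.09 (SE; edgeR adjusted p = 3.17e-09) at day 1.

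LOC113563270 and LOC105277288 have the same length, 2631 bases, and lie on the same strand of chromosome 13. Of the 5 lengths that a pair of members share, this is the 1 length whose genes are on the same chromosome, a comparison chosen after the values were seen. The sum of both genes had a median of 142 CPM in genotype M (96.2 to 230.6) and 122 CPM in genotype B (74.6 to 149.0) at day 8. At day 1 it was 183 CPM in genotype M (98.1 to 241.3) and 138 CPM in genotype B (105.7 to 164.9). LOC113563270 made up a median of 0.779% of the sum in genotype M and 22.3% in genotype B at day 8, and 0.764% and 19.8% at day 1. The sequences were not compared here, so whether reads are shared or reassigned between the 2 genes was not tested, and their values are uncertain to that extent.

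LOC113562326 (chromosome 7, 12778459 to 12781017, minus strand, overlapping no gene) was also lower in genotype M. At day 8 its median was 1.19 CPM in genotype M (0.437 to 1.86), against 4.90 CPM in genotype B (3.44 to 8.66), with no overlap. At day 1 it was 0.986 CPM in genotype M (0.287 to 3.56), against 3.36 CPM in genotype B (2.10 to 6.61), where a few genotype M brains reached the genotype B range. The log2 fold change was -2.15 ± 0.13 (SE; edgeR adjusted p = 5.39e-18) at day 8 and -1.60 ± 0.21 (SE; edgeR adjusted p = 3.73e-08) at day 1. LOC105277286 (chromosome 13, 7907447 to 7909713) had log2 fold changes of -0.56 at day 8 and -0.41 at day 1, with medians of 7.56 CPM in genotype M and 12.01 CPM in genotype B at day 8, and 7.28 and 9.15 CPM at day 1.

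LOC105285259 (chromosome 5, 15277552 to 15280272) showed a small difference with little spread. At day 8 its median was 58.2 CPM in genotype M (49.2 to 77.1), against 51.4 CPM in genotype B (47.3 to 58.8). At day 1 it was 48.4 CPM in genotype M (42.1 to 54.8), against 41.2 CPM in genotype B (38.5 to 46.2). Ranges overlapped at both ages, and the log2 fold changes were 0.19 ± 0.04 (SE; edgeR adjusted p = 0.000714) and 0.24 ± 0.03 (SE; edgeR adjusted p = 5.15e-10). LOC105285947 (chromosome 2, 15015675 to 15017729), a gene of about 1.5 CPM, had a log2 fold change of -1.02 ± 0.20 (SE; edgeR adjusted p = 0.000259) at day 8 and -0.62 ± 0.18 (SE; edgeR adjusted p = 0.0155) at day 1. Its day 1 call rested on BinB day 1 replicate 9, at 7.18 CPM against 2.86 CPM in the next library of genotype B, and leaving that library out gave a log2 fold change of -0.38 (edgeR adjusted p = 0.129).

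**Figure D5:**
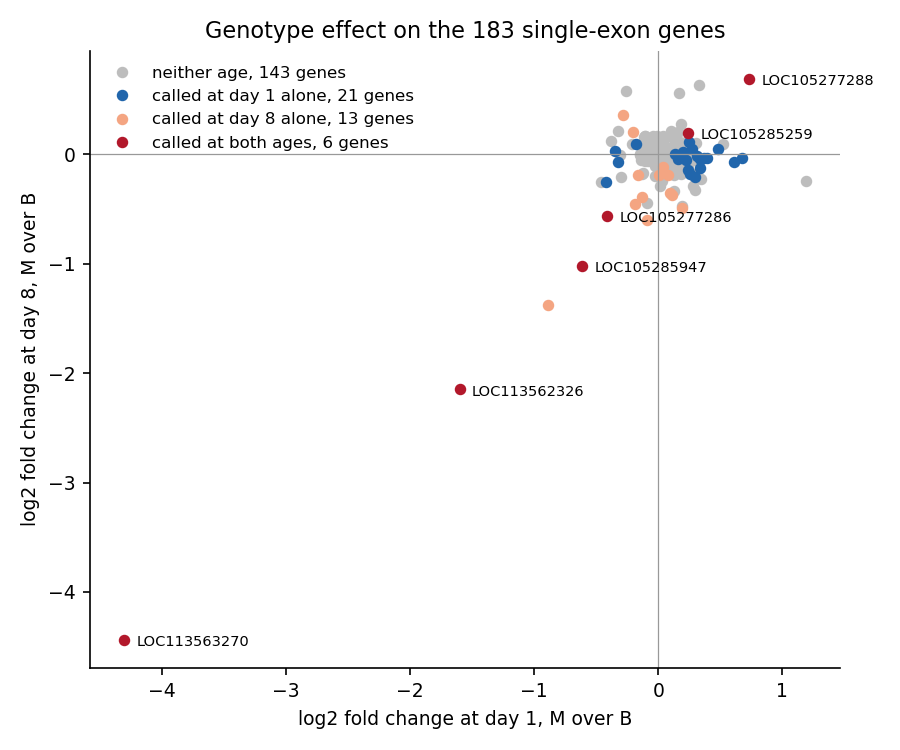
log2 fold change of genotype M over B at day 8 (vertical) and at day 1 (horizontal) for the 183 single-exon genes, coloured by the ages at which a gene was called. The 6 genes called at both ages are named. LOC113563270 lies far from the rest at -4.30 and -4.44, and LOC105277917, called at day 8 alone, lies at -1.37 for day 8 and -0.89 for day 1.

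Chromosome 13 held 5 of the 19 single-exon calls for genotype at day 8 (5 of its 14 members, 35.7%), a grouping chosen after values were seen. Of all 343 genes tested on that chromosome 66 (19.2%) were called, and of its 326 multi-exon genes 61 (18.7%), where 8.45% of all genes tested were. Elsewhere 14 of 169 members (8.28%) were called, against 8.04% of all genes. The 5 members called on chromosome 13 were LOC113563270, LOC105277288, LOC105277286, LOC113561404 and LOC105277282 (7884849 to 7887396). LOC105277282 had a median of 184 CPM in genotype M (97.7 to 271.9) and 253 CPM in genotype B (190.9 to 358.9) at day 8, with overlapping ranges and a log2 fold change of -0.46 ± 0.09 (SE; edgeR adjusted p = 0.000181). At day 1 its log2 fold change was -0.19 (edgeR adjusted p = 0.202), and the difference between the ages, -0.27, was not called (edgeR adjusted p = 0.19).

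The genotype effect was compared between the ages as the effect at day 8 minus that at day 1. It was called in 16 of the 183 single-exon genes (8.74%), 4 higher and 12 lower, where 6.39% of all genes were called (3.85% higher and 2.55% lower) and 41 matched genes were (7.47%, 22 higher and 19 lower). The median of this difference was -0.12 over single-exon genes and -0.01 over matched genes and all genes. The count fell without the libraries that stood apart. Without all 8 it was 3 genes (1.64%), all lower, with a median of -0.08, and without BinB day 1 replicate 9 alone it was 5 genes (2.73%), 2 higher and 3 lower, with a median of -0.09. Matched genes fell from 7.47% to 9 calls (1.64%) without the 8 libraries, so the loss of calls was not particular to members. The share over all genes is not given for these fits.

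LOC105275167 (chromosome 5, 9447920 to 9449186, overlapping no gene) had the lowest p. At day 8 its median was 22.8 CPM in genotype M (11.5 to 27.4), against 20.6 CPM in genotype B (17.7 to 25.8), with wide overlap. At day 1 it was 22.2 CPM in genotype M (15.9 to 27.3), against 16.7 CPM in genotype B (6.68 to 19.5). The genotype log2 fold change was 0.05 at day 8 and 0.48 at day 1, a difference of -0.44 ± 0.11 (SE; edgeR adjusted p = 0.0118), and of the 6 named genes it alone was still called both without BinB day 1 replicate 9 and without all 8 libraries. LOC113562016 (chromosome 5, 11627218 to 11629150) had a median of 150 CPM in genotype M and 128 CPM in genotype B at day 8, and 195 CPM in genotype M and 242 CPM in genotype B at day 1, a difference of effects of 0.40 ± 0.10 (SE; edgeR adjusted p = 0.0139). It shares exon sequence with LOC105281085 on the same strand. LOC105275484, LOC113561404, LOC105278937 and LOC105276070 had differences of -0.27, -0.45, -0.51 and 0.19, with edgeR adjusted p of 0.0186 to 0.0243. LOC113561404 had a median of 48.5 CPM in genotype M and 66.9 CPM in genotype B at day 8, and 64.0 CPM in genotype M and 61.7 CPM in genotype B at day 1.

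No single-exon gene was called for social environment at either age by edgeR or by the DESeq2 Wald test. All 183 were tested, where 0.0% of genes were called at day 8 and 0.0102%, a single gene that is no member, at day 1. At an unadjusted p under 0.05 there were 11 members (6.01%) at day 8, where 3.32% of all genes and 24 matched genes (4.37%) passed, and 8 members (4.37%) at day 1, where 6.66% of all genes and 40 matched genes (7.29%) passed. The 95% interval of the fold change stayed within 1.5-fold in either direction for 164 of the 183 members (89.6%) at each age. At day 8 the lowest p was that of LOC105277917, with a median of 3.94 CPM in environment M (0.982 to 16.8), against 7.11 CPM in environment B (1.14 to 64.8), and a log2 fold change of -0.94 with a 95% interval of -1.56 to -0.33 (edgeR adjusted p = 0.998). The ranges overlapped, and the highest value was that of 1 BinB brain, with 23.95 CPM the next in that group. By group the day 8 medians were 18.17 CPM in BinB, 5.715 in BinM, 5.691 in MinB and 3.79 in MinM. LOC105287509 and LOC113561729 followed, with log2 fold changes of 0.23 and -0.19.

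At day 1 the lowest p was that of LOC105287814 (chromosome 8, 3144818 to 3145709), which overlaps an exon of LOC105287813. It had a median of 13.4 CPM in environment M (9.75 to 16.4), against 14.2 CPM in environment B (12.1 to 16.95), a log2 fold change of -0.15 with a 95% interval of -0.24 to -0.06 (edgeR adjusted p = 0.68). LOC105285947 and LOC113563192 had log2 fold changes of -0.54 and -0.40 (edgeR adjusted p = 0.694 for both). In each of these genes the ranges of the environments overlapped. For LOC105285947 the highest value in environment B, 7.18 CPM against 3.47 CPM in the next library, was that of BinB day 1 replicate 9.

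Neighbouring members were compared where they lay within 20 kb of each other, which gave 13 clusters with 29 genes. The largest, on chromosome 9, held LOC105277318, LOC105277317, LOC105277316 and LOC105277384 over 19.2 kb. Deviations from the group means had an r of 0.763 between LOC105277318 and LOC105277317 and 0.01 between LOC105277318 and LOC105277384, over 96 libraries. Over the 88 that do not stand apart these were 0.759 and -0.02. The age effects of the 4 differed: the log2 fold change was 0.07 for LOC105277318 (not called), 0.16 for LOC105277317, -0.74 for LOC105277316 and -2.01 for LOC105277384. LOC105277316 had a median of 42.4 CPM at day 8 (27.5 to 121.6), against 72.7 CPM at day 1 (45.3 to 110.5), with overlapping ranges. LOC105277318 and LOC105277317 thus varied together over the libraries, while their neighbour LOC105277384 had the largest fall with age of all members. No r of distant members is given beside these, and the part of shifts shared by a whole library was not tested.

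On chromosome 13, LOC105277288 and LOC105277281 (7940346 to 7942219) had the highest r of the pairs of members within 20 kb, 0.84 over 96 libraries and 0.855 over 88, while LOC105277281 was not called for genotype, with log2 fold changes of -0.05 at day 8 and 0.26 at day 1 (edgeR adjusted p = 0.0595). LOC113563271, LOC113561404 and LOC113563270 lie within 9.04 kb on that chromosome. The r was 0.776 between LOC113563271 and LOC113561404 and 0.254 between LOC113563271 and LOC113563270, and 0.775 and 0.311 over 88 libraries. On chromosome 11, LOC105278730 and LOC105278673, on opposite strands, had an r of -0.631, and -0.506 over 88 libraries. LOC105278730 had a median of 127 CPM at day 8 (30.1 to 169.0), against 92.2 CPM at day 1 (27.1 to 125.1), and a log2 fold change of 0.51 ± 0.06 (SE; edgeR adjusted p = 1.86e-11). LOC105278673 had 21.3 CPM at day 8 (16.7 to 36.2), against 24.98 CPM at day 1 (14.8 to 34.3), and a log2 fold change of -0.20 ± 0.04 (SE; edgeR adjusted p = 1.62e-05). LOC105278730 was lowest in BinB day 1 replicate 9 (27.1 CPM) and MinB day 8 replicate 8 (30.1 CPM), and its log2 fold change without the 8 libraries was 0.52. Of the other pairs within 20 kb, LOC105283833 and LOC105283830 changed sign, with an r of -0.263 over 96 libraries and 0.332 over 88.

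Members and the genes they overlap were compared for age, with no test. On the same strand both genes were called in 30 of 62 pairs (48.4%), and in 26 of these 30 (86.7%) they changed in the same direction. In matched multi-exon genes both were called in 21 of 38 such pairs (55.3%), with the same direction in 19 of the 21 (90.5%). On the opposite strand both were called in 13 of 34 pairs (38.2%), and in 8 of the 13 (61.5%) they changed in the same direction, against 118 of 202 pairs (58.4%) and 63 of the 118 (53.4%) in matched genes. The shares of same-strand pairs with the same direction were thus close in both sets. LOC105283643 had a log2 fold change of 0.93 and its same-strand host LOC105283644 had 0.64. LOC105284725 had 1.40, while LOC105284734, whose exons it overlaps on the opposite strand, had -0.36 (edgeR adjusted p = 5.52e-05). Without a stated strand setting, shared reads cannot be told apart from shared change in these pairs.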

How the data were processed

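Reads were aligned with STAR 2.7.8a and counted with featureCounts, per the submitters' processing notes. No source used here gives the genome build, the strand setting or the handling of multiple alignments. The authors deposited raw counts per gene for 96 libraries, each from 1 brain. Spans of all 13553 features other than tRNA genes equal those of the RefSeq assembly Obir_v5.4, whose coordinates are given. Members averaged 1 CPM or more by library total. Means over all libraries, except those beside the CPM limit, and CPM per kilobase also use library totals, CPM values by library and group are TMM-scaled, and log2 CPM used a prior count of 2. Members, lists and tests were chosen with earlier results of these data known. edgeR 4.0.16 (R 4.3.3; TMM, filterByExpr with a minimum count of 10, robust quasi-likelihood F test, Benjamini-Hochberg adjustment over all genes tested, threshold 0.05) was fitted on the whole table: 1 model of 8 groups for age and genotype by age, and 1 model of 4 groups per age for genotype and environment. All 183 members passed the filter in each comparison. Fits were tested on simulated data. Alternatives were DESeq2 1.42.0, other scalings and filters, and fits without the libraries that stood apart, which were chosen after seeing the data. Genes were named by rule: the 8 largest called rises and falls with age, all genes called for genotype at both ages, up to 6 called for genotype by age, the 3 lowest p for environment, the 8 most abundant, the 2 nearest each side of the CPM limit, and the 3 of smallest and of largest spread. Neighbours, hosts, the equal-length pair and LOC105277282 were named after their values were seen. Gene lists and markers defined by product name could not be applied. No sequences were used. Replicate numbers at day 8 only name libraries. Day 1 titles share numbers between groups, but the 52 same-number pairs had a median r of 0.04 between their deviations from the group means (lowest -0.44, 19 above 0.1), so the numbers were not taken to pair brains.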

Additional observations from a re-analysis of the deposited data

Results flagged for a closer look

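In groups of 4 to 10 libraries, 15 values of the named genes stood apart from the rest of their group. Chance gives such a gap in about 1 group in 20, and 156 groups were examined. Only groups of genotype B were of that size. Those of genotype M, with 12 to 20 libraries, were not examined in this way, so the list does not compare the genotypes. In BinB day 1, LOC105278722 reached 6.58 CPM (next 2.99), LOC105285947 7.18 CPM (next 2.86), LOC105276070 154 CPM (next 115), LOC113562327 668 CPM (next 380) and LOC105277811 424 CPM (next 324.0), while LOC105275167 was as low as 6.68 CPM (next 13.9) and LOC105278937 as low as 1.87 CPM (next 4.90). All of these but LOC105278722, which was highest in replicate 2, came from BinB day 1 replicate 9. In BinB day 8, LOC105277917 reached 64.8 CPM (next 23.95), LOC105278285 5.597 CPM (next 3.40) and LOC105283643 8.27 CPM (next 5.18), and the lowest values of LOC105277288 and LOC113562947 were 53.3 CPM (next 90.9) and 412 CPM (next 504.5). In BinM day 8, the rRNA gene LOC113563324 reached 32.3 CPM (next 3.07), LOC113562326 8.66 CPM (next 5.45), and LOC105275484 was as low as 11.2 CPM (next 14.5).

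The genotype effect differed between the ages, by the interaction test, in 16 single-exon genes (8.74%). Of all genes tested 6.39% were called, and of matched genes 7.47%. Most calls, of members and of matched genes alike, were lost without the libraries that stood apart. Of the 6 named genes LOC105275167 alone kept its call. The differences of the 6 named ones were -0.44 for LOC105275167, 0.40 for LOC113562016, -0.27 for LOC105275484, -0.45 for LOC113561404, -0.51 for LOC105278937 and 0.19 for LOC105276070 (log2, effect at day 8 minus effect at day 1).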

How the results depend on the processing

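The share of members called for genotype by age, 8.74% with all libraries, was 1.64% without the 8 libraries that stood apart and 2.73% without BinB day 1 replicate 9, and that of matched genes, 7.47%, was 1.64% without the 8. Leaving out single libraries that stood apart gave 63.4% to 71.0% called for age, 9.29% to 10.4% for genotype at day 8, 11.5% to 16.4% at day 1 and 2.73% to 9.84% for genotype by age. Other libraries were not left out singly. Environment had no call under any alternative run. Under other scalings and filters, DESeq2, members of 5 CPM or more and members without overlap, shares stayed within 1.5 times those reported. With the day 1 title number as a replicate block, 11.5% of members (21 genes, 14 higher and 7 lower) were called for genotype at day 1, and none for environment. Shares over all genes are not given for this or the other alternatives. No result for a named gene changed direction in 479 alternatives, and 10 lost their call: LOC105285947 at day 1 and LOC113562016, LOC105275484, LOC113561404, LOC105278937 and LOC105276070 for genotype by age, each without the 8 libraries, and LOC105285947, LOC113561404, LOC105278937 and LOC105276070 also without BinB day 1 replicate 9. The cause was not tested. Members near 1 CPM rest on few reads a library, and intervals cover the spread between these libraries only.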
